A study of Allium sativum with 18 samples.

Results

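The bulbs of 2 garlic varieties, Ershuizao and Chalingzipisuan, were compared before their enlargement. Both varieties were planted in October 2019 on the same farm, and parts of bulbs that had not begun to enlarge were collected in February 2020, from 3 individuals of each variety. The labels name no treatment and no allele, so that the groups are defined by variety and stage alone. RNA sequencing of each individual gave 6 of the 18 libraries of the series. The others are 3 libraries of another variety, Yuanjiangyangsuan, at the same stage, and 9 libraries of the 3 varieties collected in March 2020 under enlarging growth. Levels are FPKM values, that is, fragments per kilobase of gene scaled to the size of the library. A gene was compared if its FPKM reached 0.5 in 3 or more of the 6 libraries, which held for 29332 of the 57561 genes in the deposited table. The labels give the tissue as leaf and the stage as that of bulbs. No annotation of the genes was at hand to check the tissue by its markers, to place the genes in the genome or to show their sequences.

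A garlic bulb is a set of cloves, each of which is a swollen axillary bud. Outgrowth of axillary buds depends on auxin and on transcription factors that hold buds at rest, and in onion, a relative of garlic, the swelling of the bulb starts when days lengthen and involves FT-like proteins, which carry the day-length signal from leaf to meristem. Gibberellins are known to oppose the formation of storage organs such as the potato tuber. The comparison asks which genes were already at different levels in the varieties while the bulbs were still small.

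The depth was similar in the varieties, with 11079541 to 13452277 fragments on genes in each Ershuizao library and 11924715 to 14117986 in each Chalingzipisuan library. Pearson correlations of log2(FPKM + 0.5) over the genes tested lay between 0.9497 and 0.970 among the Ershuizao libraries, between 0.936 and 0.959 among the Chalingzipisuan libraries, and between 0.913 and 0.9504 between the varieties. The first principal component held 39.5% of the variance and separated the varieties. The second held 25.7% and set replicate 1 of Chalingzipisuan and replicate 2 of Ershuizao apart from the other libraries. Among the enlarging libraries used below, replicate 3 of Chalingzipisuan correlated with the other enlarging libraries of its variety at 0.807 and 0.841, and with the 3 libraries of its variety before enlargement at 0.922 to 0.938. By these correlations that library stood nearer to the stage before enlargement than to its label, though single genes described below differ in this. Counts that rest on it are given with and without it, and so are tests of single genes where it changed a call.

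Before enlargement 260 genes were higher in Ershuizao and 68 were higher in Chalingzipisuan (limma on log2(FPKM + 0.5), adjusted P under 0.05 and a difference above 2-fold). These were 0.886% and 0.232% of the genes tested, and 79.3% of the called genes were higher in Ershuizao. Reads of both varieties were aligned with 1 reference genome, and whether this contributes to that excess was not tested. The median difference was 2.26 on the log2 scale among the genes higher in Ershuizao, and 160 of them differed more than 4-fold and 28 more than 16-fold. Among the genes higher in Chalingzipisuan the median was -1.82, with 31 above 4-fold and 3 above 16-fold. The median over all genes tested was -0.01. The log2 scale with a pseudocount of 0.5 understates the differences of weakly expressed genes. P values measure the spread between the 3 individuals of each variety, and in bulk tissue fewer cells of a type and less RNA per cell cannot be told apart. None of the 328 called genes had overlapping groups, and over all genes tested the groups did not overlap with Ershuizao higher in 10.9% and with Chalingzipisuan higher in 9.65%. The median over the called genes of the mean FPKM in the higher variety was 10.05 in Ershuizao and 27.1 in Chalingzipisuan.

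These counts depended on all 6 libraries. Without replicate 1, 2 or 3 of Ershuizao the genes called higher in Ershuizao numbered 20, 2 and 2, and those higher in Chalingzipisuan 19, 1 and 1. Without replicate 1, 2 or 3 of Chalingzipisuan they numbered 167, 233 and 111, and 61, 27 and 10. Of the genes higher in Ershuizao, 177 were still tested without an Ershuizao library, since the filter then asks for 3 of 5 libraries, and 177, 174 and 173 of them passed 2-fold and an unadjusted P under 0.05. Their direction says nothing on stability, being fixed by the choice of genes without overlap.

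**Figure D1:**
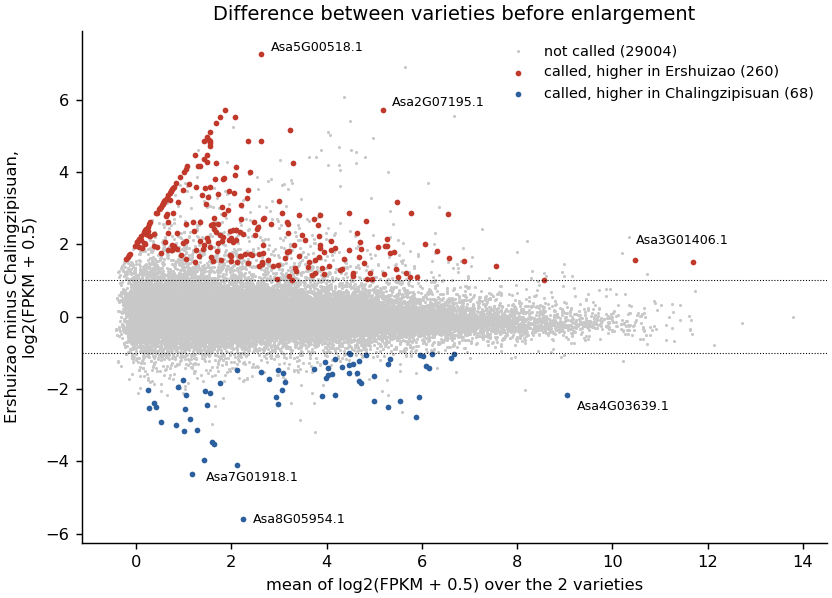
Difference between the varieties (vertical axis, log2) against the mean level (horizontal axis, log2(FPKM + 0.5)) for the 29332 genes tested. Red points are the 260 genes called higher in Ershuizao and blue points the 68 called higher in Chalingzipisuan, dotted lines mark 2-fold, and the straight upper left edge is formed by genes that were at or near 0 in Chalingzipisuan.

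Of the genes higher in Ershuizao, 50 were at 0 in all 3 Chalingzipisuan libraries, while 2 of the genes higher in Chalingzipisuan were at 0 in all 3 Ershuizao libraries. Without replicate 3 of Chalingzipisuan the first of these counts was 31. Before any call, 72 of the genes tested were at 0 in Chalingzipisuan and at least 0.5 in every Ershuizao library, and 7 showed the reverse. The 50 genes had a mean FPKM between 1.01 and 75.6 in Ershuizao, with a median of 3.98. Their recovered lengths were short, with a median of 348 bases against 693 bases for all genes higher in Ershuizao and 759 bases for all genes tested.

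The 4 of these genes with the highest minimum FPKM are described singly. None of them is named in the sources used here. A gene at 0 in all libraries of a variety passes the filter through the other variety alone. It has no spread at 0, so that its P value rests on the spread in the other variety and on variances moderated over genes. *Asa5G00518.1* had FPKM values of 69.0, 73.4 and 84.5 in Ershuizao and of 0 in each Chalingzipisuan library. The 376, 363 and 522 fragments behind the Ershuizao values put the gene at least 145-fold higher than the level that 3 fragments per library would give in Chalingzipisuan, a limit that covers counting error only (limma adjusted P = 1.78e-05). Its exact two-sided permutation p was 0.1, which 3 samples against 3 cannot go below, and all genes without overlap share that p. It was again at 78.9, 75.1 and 95.0 in the enlarging bulbs of Ershuizao and at 0 in those of Chalingzipisuan, and it was at 0 in all 6 libraries of Yuanjiangyangsuan. Expression of *Asa5G00518.1* was thus seen in Ershuizao alone among these 18 libraries.

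*Asa0G00678.1* was at 27.2, 27.5 and 23.0 in Ershuizao, at least 24.5-fold higher by the same limit (adjusted P = 0.000158). *Asa1G01536.1* was at 19.0, 24.0 and 24.0, at least 20.3-fold higher (adjusted P = 0.000194). *Asa8G02475.1* was at 21.9, 15.8 and 22.9, at least 34.8-fold higher (adjusted P = 0.000263). All of these genes were at 0 in all 3 enlarging Chalingzipisuan libraries too. In Yuanjiangyangsuan *Asa8G02475.1* was above 0 in each library, between 0.412 and 2.25, so that this gene was detected throughout a second variety at a much lower level. There *Asa1G01536.1* was at 0 to 0.798 and *Asa0G00678.1* at 0 to 0.371.

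Libraries that the calls did not use showed the same split for most of the 50 genes. Of these, 40 were at 0 in all 3 enlarging Chalingzipisuan libraries, 46 were above 0 in all 3 enlarging Ershuizao libraries, and both held for 38. Enlarging replicate 3 of Chalingzipisuan enters the first of these counts, but a gene at 0 in all 3 libraries is also at 0 without it. Such counts were not made over all genes tested, nor over the 72 genes at 0 before any call. They have no background and describe the 50 genes only. Before enlargement, Yuanjiangyangsuan was at 0 in all 3 libraries for 29 of the 50 genes, above 0 in all 3 for 12 and mixed for 9, and 23 were at 0 in all 6 of its libraries. All reads were aligned with a single reference, and whether a gene at 0 was not expressed, is absent from the variety or differs from the reference so that its reads did not align cannot be told apart here.

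In the opposite direction, *Asa7G01918.1* was at 6.93, 15.2 and 8.34 in Chalingzipisuan and at 0 in Ershuizao, at least 7.51-fold higher (adjusted P = 0.00187). Under enlarging growth it was at 12.7, 15.2 and 15.1 in Chalingzipisuan, and at 0.510, 0 and 0 in Ershuizao. *Asa4G04363.1* was at 1.40, 3.74 and 2.48 in Chalingzipisuan and at 0 in Ershuizao, at least 6.01-fold higher (adjusted P = 0.0235), and both genes were above 0 in every Yuanjiangyangsuan library. The largest difference in this direction, picked after the values were seen, was that of *Asa8G05954.1*, at 25.4, 38.0 and 36.1 in Chalingzipisuan against 0.421, 0 and 0.186 in Ershuizao (log2 difference -5.61, standard error 0.30, adjusted P = 0.000359). The same gene was at 23.9 to 42.4 in the enlarging Chalingzipisuan bulbs and at 0 to 0.237 in those of Ershuizao.

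Among the genes that were above 0 in all 6 libraries, 151 genes higher in Ershuizao and 52 higher in Chalingzipisuan reached a mean FPKM of at least 5 in the higher variety, and the 5 with the largest difference in each direction follow. *Asa2G07195.1* was at 191, 465 and 201 in Ershuizao and at 6.07, 5.78 and 2.50 in Chalingzipisuan, a ratio of the means of 59.8 (log2 difference 5.72, standard error 0.42, adjusted P = 0.00156). Its level stayed apart under enlarging growth, at 75.6 to 113 against 0.614 to 2.30, and Yuanjiangyangsuan was at 201 to 416 before enlargement, near Ershuizao. *Asa1G01559.1* was at 10.9, 10.1 and 8.83 in Ershuizao and at 0.0950, 0.0536 and 0.0972 in Chalingzipisuan, where 1 or 2 fragments per library stand behind each value (log2 difference 4.16, standard error 0.25, adjusted P = 0.00054). Under enlarging growth *Asa1G01559.1* was again higher in Ershuizao (log2 difference 3.87, adjusted P = 0.0114, and 3.77, adjusted P = 0.0227 without replicate 3 of Chalingzipisuan), and it was at 12.2 to 20.2 in Yuanjiangyangsuan.

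For the other genes of this group the level in the enlarging bulbs of Chalingzipisuan differed between replicate 3 and the other replicates. *Asa6G01879.1* was at 30.2, 51.2 and 109 in Ershuizao and at 0.867, 3.68 and 0.169 in Chalingzipisuan (log2 difference 5.16, standard error 0.70, adjusted P = 0.0213). In enlarging Chalingzipisuan it was at 104 and 57.6 in replicates 1 and 2, as high as the 56.4 to 95.8 of Ershuizao, and at 0.232 in replicate 3. *Asa6G06390.1* was at 34.9, 44.8 and 49.1 against 3.26, 3.68 and 0.247 (log2 difference 4.24, adjusted P = 0.0252). Enlarging Chalingzipisuan had 94.3 and 142 for this gene in replicates 1 and 2 and 0.136 in replicate 3. *Asa7G00442.1* was at 4.79, 42.8 and 11.3 against 0.227, 0.256 and 0.232, each of the latter a single fragment (log2 difference 4.24, adjusted P = 0.0361), and at 56.6, 96.4 and 0.255 in enlarging Chalingzipisuan. The log2 differences under enlarging growth were 2.14, 2.12 and -0.16 for *Asa6G01879.1*, *Asa6G06390.1* and *Asa7G00442.1*, and -0.10, -0.38 and -2.36 without replicate 3. The differences of *Asa6G01879.1*, *Asa6G06390.1* and *Asa7G00442.1* before enlargement were themselves not called with all 18 libraries in 1 fit (adjusted P = 0.0749, 0.246 and 0.189) or with the replicate block (0.0769, 0.0769 and 0.0788), nor when certain single libraries were left out. None of the differences under enlarging growth passed the test, and in each of the genes replicate 3 stood with the libraries before enlargement.

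Of the genes higher in Chalingzipisuan, *Asa6G05716.1* was at 22.8, 9.39 and 25.2 against 0.685, 0.377 and 0.604 in Ershuizao (log2 difference -4.11, standard error 0.39, adjusted P = 0.00479). *Asa7G06559.1* was at 3.85, 12.8 and 16.6 against 0.626, 0.459 and 0.184 (log2 difference -3.46, adjusted P = 0.0292). *Asa6G00447.1* was at 6.10, 3.87 and 6.48 against 0.789, 0.145 and 0.174 (log2 difference -2.83, adjusted P = 0.0185). The remaining genes shared a pattern over the stages. *Asa6G00610.1* was at 95.8, 194 and 190.0 in Chalingzipisuan and at 18.3, 25.8 and 22.7 in Ershuizao (log2 difference -2.76, adjusted P = 0.00724), and in the enlarging bulbs it was at 6.23 to 7.51 and at 3.93 to 12.5. *Asa5G01446.1* was at 45.5, 121 and 147 against 14.8, 16.6 and 16.8 (log2 difference -2.50, adjusted P = 0.0357), with 2.98 to 4.76 and 0.561 to 9.13 in the enlarging bulbs. Both were thus lowest in enlarging bulbs of either variety, and Yuanjiangyangsuan ran the same way, from 51.2 to 64.4 before enlargement to 2.78 to 10.2 for *Asa6G00610.1*.

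**Figure D2:**
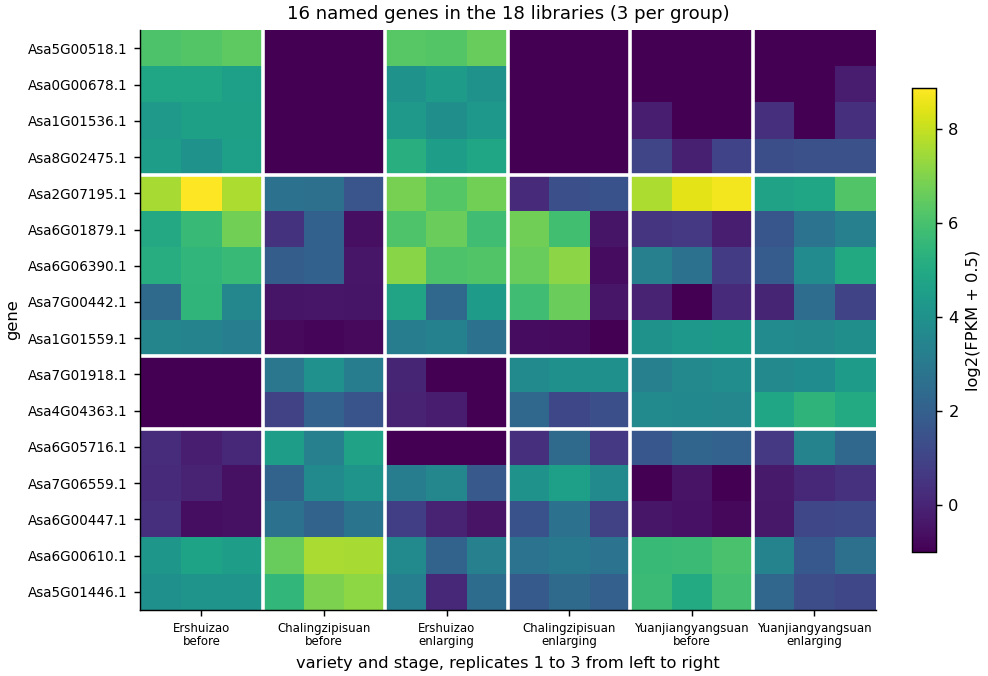
Level of 16 genes (rows) in the 18 libraries (columns, 3 per variety and stage), with log2(FPKM + 0.5) as colour. From top to bottom, white lines separate genes at 0 in Chalingzipisuan, other genes higher in Ershuizao, genes at 0 in Ershuizao and other genes higher in Chalingzipisuan; *Asa6G01879.1*, *Asa6G06390.1* and *Asa7G00442.1* are high in 2 of the 3 enlarging Chalingzipisuan libraries and near 0 in the third.

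The called genes with the highest mean FPKM over the 6 libraries, 3 in each direction, are given next. *Asa3G01406.1* was at 5426, 6197 and 5246 in Ershuizao and at 1899, 2318 and 1699 in Chalingzipisuan, 2.85 times as high by the means (log2 difference 1.52, standard error 0.18, adjusted P = 0.0109). In the enlarging bulbs it was at 6566 to 11013 in Ershuizao and at 12794, 13631 and 1459 in Chalingzipisuan, the last value again that of replicate 3. *Asa2G04783.1* was at 528, 529.9 and 548 against 302, 227 and 279 (log2 difference 1.00, adjusted P = 0.0344), just past the 2-fold threshold. *Asa8G01593.1* was higher in Chalingzipisuan, at 172, 148 and 122 against 73.0, 71.8 and 69.2 (log2 difference -1.03, adjusted P = 0.0344). *Asa2G02695.1* was likewise higher there, at 129, 159 and 147 against 67.2, 59.6 and 70.0 (log2 difference -1.14, adjusted P = 0.0177). No function of these genes is given in the sources used here.

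The other abundant genes carry successive identifiers and went in opposite directions. *Asa4G03640.1*, of 417 bases, was at 2374, 2582 and 2393 in Ershuizao and at 795, 737 and 976 in Chalingzipisuan (log2 difference 1.56, standard error 0.16, adjusted P = 0.00724). *Asa4G03639.1*, of 420 bases, was at 189, 335 and 243 in Ershuizao and at 1451, 917 and 1079 in Chalingzipisuan (log2 difference -2.18, standard error 0.26, adjusted P = 0.0121). *Asa4G03640.1* made up 88.5% to 92.6% of the summed FPKM of the pair in Ershuizao and 35.4% to 47.5% in Chalingzipisuan, while the sum was 2562 to 2917 and 1654 to 2246. In Yuanjiangyangsuan before enlargement the share was 2.07% to 4.14%. The 3 varieties thus had 3 separate shares of the pair at this stage. If these genes are near-identical copies, reads could have been assigned to either of them, and with no sequence at hand their levels are uncertain singly. A second such pair, 4 numbers apart, was *Asa7G01914.1*, at 6.41, 3.41 and 5.28 in Ershuizao and 0 in Chalingzipisuan, with the gene *Asa7G01918.1* described above.

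By the digit after Asa in the identifier, between 0.834% and 1.47% of the genes tested were called. Called genes of the same direction whose numbers lay within 5 of the next formed 22 runs with 47 genes among those higher in Ershuizao, 20 of which were pairs, and 4 runs with 9 genes among those higher in Chalingzipisuan. Runs were not counted for genes that were not called, so that these counts have no background. The longest run held 4 of the 5 genes tested between its ends. In it, *Asa1G00611.1* was at 11.01, 20.3 and 13.8 in Ershuizao and at 0, 0.265 and 0 in Chalingzipisuan (adjusted P = 0.00121). Its neighbour *Asa1G00614.1* was at 12.03, 22.0 and 7.17 against 0.463, 0.836 and 0.758 (adjusted P = 0.0109). *Asa1G00610.1* was at 8.47, 11.8 and 5.95 against 0 in each library (adjusted P = 0.00164), and *Asa1G00615.1*, at 4.68, 6.37 and 1.52 against 0 to 0.140, completed the run. The second run in this direction held 3 of the 6 genes tested between its ends. It joined *Asa7G00442.1* with *Asa7G00439.1*, at 7.31, 15.8 and 8.89 against 0.227, 1.02 and 0.464 (adjusted P = 0.0109), and with *Asa7G00437.1*, at 1.66, 0.913 and 2.68 against 0 (adjusted P = 0.0447). Only 6, 3 and 11 fragments stood behind the Ershuizao values of *Asa7G00437.1*, which was at least 2.23-fold higher by the limit used above. Genes with neighbouring numbers and equal lengths may share reads, which was not tested. Examples are *Asa7G00439.1* and *Asa7G00442.1* with 273 bases each, and *Asa1G00610.1* and *Asa1G00615.1* with 999 each.

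The longest run among the genes higher in Chalingzipisuan comprised *Asa3G01470.1*, *Asa3G01471.1* and *Asa3G01472.1*, for which the order of the varieties reversed with the stage. *Asa3G01470.1* was at 6.57, 5.19 and 4.92 in Chalingzipisuan and at 0.602, 0 and 0.0663 in Ershuizao before enlargement (log2 difference -3.15, adjusted P = 0.0109). Under enlarging growth it was at 0.352, 0.163 and 0.837 in Chalingzipisuan and at 3.47, 4.28 and 2.32 in Ershuizao. *Asa3G01471.1* went from 2.24 to 4.71 against 0 to 0.0917 before enlargement to 0 to 0.694 against 0.809 to 1.34, and *Asa3G01472.1* from 1.59 to 2.29 against 0 to 0.1504 to 0.0813 to 0.609 against 1.02 to 1.91. In these 3 genes the varieties did not overlap at either stage and stood in opposite order. The differences under enlarging growth did not pass the test by themselves (limma adjusted P = 0.26, 0.66 and 0.566 in the order of the run). How many of all genes tested show such an opposite order was not counted. *Asa3G01470.1* and *Asa3G01472.1* have 915 bases each and may share reads too, which was not tested, so that the 3 genes may not be separate observations.

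The enlarging bulbs of the same varieties, 6 libraries that had no part in the calls, were tested in the same way. At adjusted P under 0.05 and above 2-fold, 32 genes were higher in Ershuizao and 6 in Chalingzipisuan (0.109% and 0.0204% of 29409 genes), and without enlarging replicate 3 of Chalingzipisuan these were 44 and 26. With limma voom on the recovered fragments, and with the replicate number as a block, the calls were 0 in both directions. Of the 249 genes higher in Ershuizao before enlargement that were tested, 217 (87.1%) had the same direction under enlarging growth, and 93 passed unadjusted P under 0.05 and 2-fold in that direction, where 1.7% of all genes did. Of 66 genes higher in Chalingzipisuan, 58 (87.9%) had the same direction, and 27 passed, against 1.24% of all genes. Over all 27936 genes tested at both stages the direction was the same in 59.3%.

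The shares with the same direction were lower without replicate 3, most of all among the genes higher in Ershuizao, and over all genes too. Without it, 151 of 247 genes higher in Ershuizao (61.1%) kept their direction and 46 of 61 genes higher in Chalingzipisuan (75.4%), beside 49.9% of all genes. Those passing unadjusted P and 2-fold in the same direction were then 94 among the genes higher in Ershuizao and 22 among the others, against 93 and 27 with all libraries. In the opposite direction 22 and 4 passed, against 2 and 4. The share of all genes that passed without that library was not computed, so that these counts have no background. By size alone, 98 of the 247 genes stayed above 2-fold higher in Ershuizao, 118 were within 2-fold and 31 were above 2-fold in the opposite direction. The stage means of Chalingzipisuan without that library lay more than 2-fold apart for 146 of the 260 genes higher in Ershuizao, and for 125 of these replicate 3 was closer to the libraries before enlargement. Of the 68 genes higher in Chalingzipisuan, 26 were that far apart, and for 10 of these replicate 3 was closer to the libraries before enlargement. Among the latter genes *Asa6G00610.1* (6.33), *Asa5G01446.1* (3.52) and *Asa3G01470.1* (0.837) had values in replicate 3 near those of the other enlarging libraries. The counts by size and by stage means were not made over all genes tested. The called genes were also chosen on the libraries before enlargement that enter these means, so that the counts describe the called genes only.

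**Figure D3:**
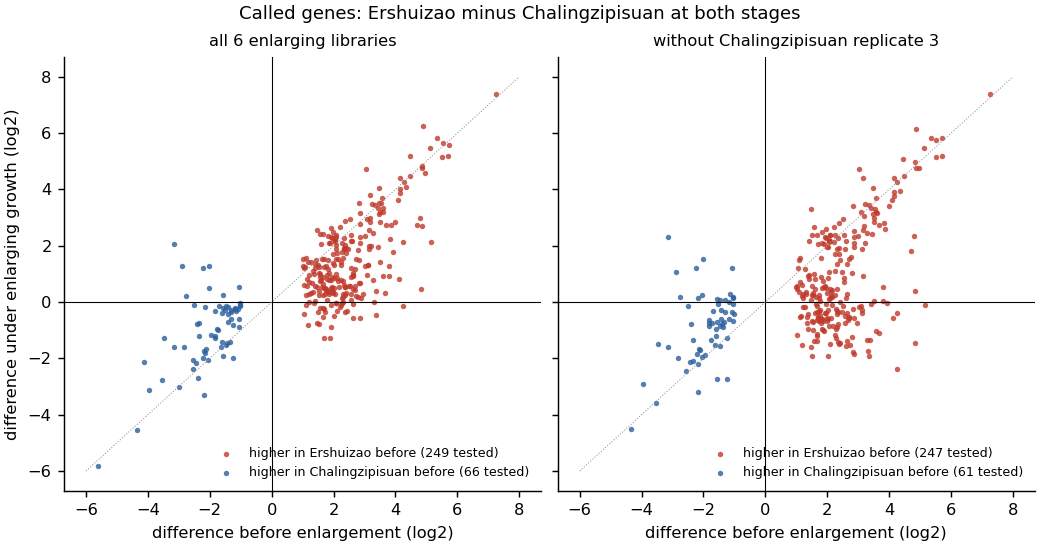
Ershuizao minus Chalingzipisuan (log2) before enlargement (horizontal axis) and under enlarging growth (vertical axis) for each called gene, with all 6 enlarging libraries on the left and without enlarging replicate 3 of Chalingzipisuan on the right. Along the dotted line both differences are equal; on the right more of the genes higher in Ershuizao lie near or below 0 on the vertical axis.

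The change of the variety difference between the stages was tested over the 12 libraries. It passed adjusted P under 0.05 for 2 of 31578 genes, *Asa3G01470.1* (a change of -5.20 on the log2 scale, standard error 0.53, adjusted P = 0.0321) and *Asa7G01587.1* (-3.44, standard error 0.38, adjusted P = 0.0373), while 1463 genes passed an unadjusted P under 0.05. Without enlarging replicate 3 of Chalingzipisuan 92 genes passed, among them 43 of the genes higher in Ershuizao and 5 of those higher in Chalingzipisuan; these genes were called on libraries that the test shares. *Asa7G01587.1* was at 158, 107 and 139 in Chalingzipisuan and at 46.1, 19.9 and 23.9 in Ershuizao before enlargement (log2 difference -2.23, adjusted P = 0.0235). Under enlarging growth it was at 74.2, 59.3 and 65.1 in Chalingzipisuan and at 144, 149.8 and 167 in Ershuizao. The groups did not overlap at either stage, and their order was reversed. The difference under enlarging growth did not pass the test by itself (limma adjusted P = 0.105). Yuanjiangyangsuan was at 38.7 to 45.4 and 25.0 to 36.0.

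**Figure D4:**
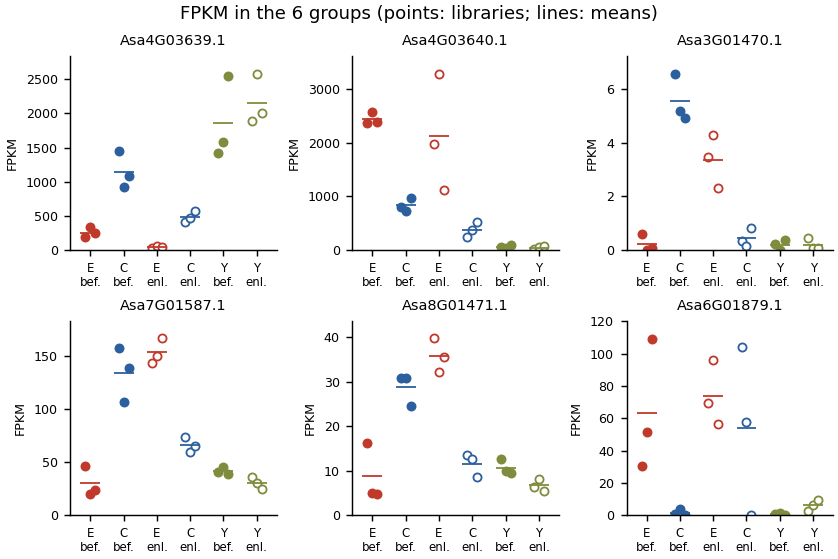
FPKM (vertical axes from 0) of 6 genes in Ershuizao (E, red), Chalingzipisuan (C, blue) and Yuanjiangyangsuan (Y, green) before enlargement (filled points) and under enlarging growth (open points), with a line at each mean of 3 libraries. *Asa4G03639.1* and *Asa4G03640.1* differ in opposite directions, *Asa3G01470.1*, *Asa7G01587.1* and *Asa8G01471.1* change the order of E and C with the stage, and 1 of the 3 open blue points of *Asa6G01879.1* lies near 0.

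The libraries of Yuanjiangyangsuan, which had no part in choosing these genes, show what the called genes did over the stages in another variety. From before enlargement to enlarging growth 10.4% of 27673 genes were upregulated and 14.6% downregulated in it (adjusted P under 0.05 and above 2-fold). Of the 194 genes higher in Ershuizao that were tested there, 55 (28.4%) were upregulated and 24 (12.4%) downregulated. Of 59 genes higher in Chalingzipisuan, 18 (30.5%) were upregulated and 11 (18.6%) downregulated. By mean log2 level before enlargement, Yuanjiangyangsuan was nearer to Chalingzipisuan for 165 of the 260 genes higher in Ershuizao, and nearer to Ershuizao for 41 of the 68 genes higher in Chalingzipisuan. Among the called genes Yuanjiangyangsuan was thus nearer to the variety with the lower level for most genes of either direction. Such counts were not made over all genes tested, so that these have no background. The called genes were chosen for a gap between the varieties, and the higher variety alone could meet the filter on low values. Whether this choice favours the side of the lower variety was not tested, and the counts describe the called genes only.

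The genes that the paper names as candidates for bulb traits formed 3 lists with 14 genes, 11 of which passed the filter on low values. None of these 11 was called by limma, nor by limma voom on the recovered fragments, against 0.886% and 0.232% of all genes, and their median log2 difference was 0.49 beside -0.01 over all genes tested. That median rested on replicate 1 of Chalingzipisuan, without which it was -0.026, while without any other library it lay between 0.17 and 0.80. At an unadjusted P under 0.05 and above 2-fold, 2 genes would be higher in Ershuizao and 1 in Chalingzipisuan, where 4.46% and 1.26% of all genes tested would be. The photoperiod and gibberellin genes were picked in part for their response to the stage in these libraries, so that the lists are not independent of the data.

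Of the 5 photoperiod and flowering genes 4 were tested. *Asa8G01471.1* is a homolog of *CDF2*, a DOF transcription factor that represses flowering signals in Arabidopsis. It was at 30.9, 30.8 and 24.7 in Chalingzipisuan and at 16.2, 5.02 and 4.86 in Ershuizao, with no overlap (log2 difference -1.88, standard error 0.42, adjusted P = 0.0995). The difference was called without replicate 1 of Ershuizao (-2.42, adjusted P = 0.0339) and when all 18 libraries shared an estimate of the spread (adjusted P = 0.00896). In enlarging bulbs the order was the opposite, 39.8, 32.2 and 35.6 in Ershuizao against 13.5, 12.7 and 8.48 (log2 difference 1.62, adjusted P = 0.105). Without enlarging replicate 3 of Chalingzipisuan that difference was 1.42 (adjusted P = 0.0497), which passed the threshold. The change between the stages had an adjusted P of 0.146, and of 0.0426 without that library.

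*Asa2G00681.1*, like *ELF4*, which codes for a part of the circadian clock of Arabidopsis, was at 11.8, 8.42 and 15.3 in Ershuizao and at 2.50, 12.5 and 9.61 in Chalingzipisuan (log2 difference 0.71, adjusted P = 0.617). *Asa2G04763.1*, like the bZIP factor *TGA4*, was at 9.59, 5.52 and 8.12 against 3.22, 7.89 and 2.89 (0.77, adjusted P = 0.437). Another *TGA4*-like gene, *Asa6G01159.1*, was not tested, at 0.633, 0.107 and 0.988 against 0.0877, 0 and 0. *Asa6G06199.1*, the ortholog of onion *FT2*, was at 8.86, 4.74 and 4.25 in Ershuizao and at 0.352, 8.60 and 7.57 in Chalingzipisuan (0.63, adjusted P = 0.806). The groups of all tested genes of this paragraph overlapped. Without replicate 1 of Chalingzipisuan the log2 difference of *Asa6G06199.1* was -0.48 and that of *Asa2G00681.1* was 0.071.

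Of the 4 gibberellin genes 3 were tested. Gibberellin 20-oxidases (GA20ox) are known as enzymes of gibberellin synthesis, whereas the paper describes GA20ox as catabolic, and which role the garlic genes have was not tested. *Asa6G01110.1*, the ortholog of *BEL5*, whose transcript moves through the phloem and promotes tubers in potato, was at 45.3, 23.6 and 31.4 in Ershuizao and at 7.44, 22.5 and 21.6 in Chalingzipisuan (log2 difference 1.04, standard error 0.43, adjusted P = 0.34). Its lowest Ershuizao value lay just above the highest Chalingzipisuan value, and without replicate 1 of Chalingzipisuan the difference was 0.54. *Asa0G05638.1*, called GA20ox in the paper, was at 1301, 449 and 974 against 287, 907 and 784 (0.49, adjusted P = 0.74), and at -0.03 without that library. *Asa2G00237.1*, a homolog of rice *SLR1*, which codes for a DELLA repressor of gibberellin signalling, was at 0.531 to 0.803 against 0.408 to 1.15 (-0.19, adjusted P = 0.854). The other gene of that name, *Asa4G02474.1*, was at 0.129 or less in all 6 libraries. For *Asa6G01110.1*, *Asa0G05638.1*, *Asa6G06199.1* and *Asa2G00681.1*, and for *Asa2G00253.1* described next, replicate 1 of Chalingzipisuan had the lowest value of all 6 libraries.

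Of the 5 genes for auxin and bud outgrowth 4 were tested. *Asa2G00253.1*, printed in the paper as like *AXR1*, which codes for a part of an enzyme needed for the auxin response in Arabidopsis, was at 3.30, 5.70 and 4.33 in Ershuizao and at 0.723, 1.90 and 3.21 in Chalingzipisuan, with no overlap (log2 difference 1.13, standard error 0.43, adjusted P = 0.296). Without replicate 1 of Chalingzipisuan it was 0.70. *Asa2G00503.1*, printed for the same name, was at 31.0, 33.9 and 31.2 against 29.0, 27.7 and 31.4 (0.12, standard error 0.13, adjusted P = 0.747), the tightest estimate among the candidates. *Asa2G02184.1*, like the auxin synthesis enzymes called YUCCA, was at 2.26, 1.32 and 3.51 against 1.56, 2.97 and 1.96 (0.07, adjusted P = 0.961), and its sign turned with quantile normalization. *Asa4G00255.1*, related to the TOPLESS corepressors, was at 1.75, 0.680 and 1.90 against 1.11, 2.19 and 4.17 (-0.56, adjusted P = 0.663). *Asa2G00245.1*, like the maize gene *TB1* that restrains bud outgrowth, was above 0 in replicate 2 of Ershuizao only, at 0.131, and the limits at this depth allow no comparison.

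**Figure D5:**
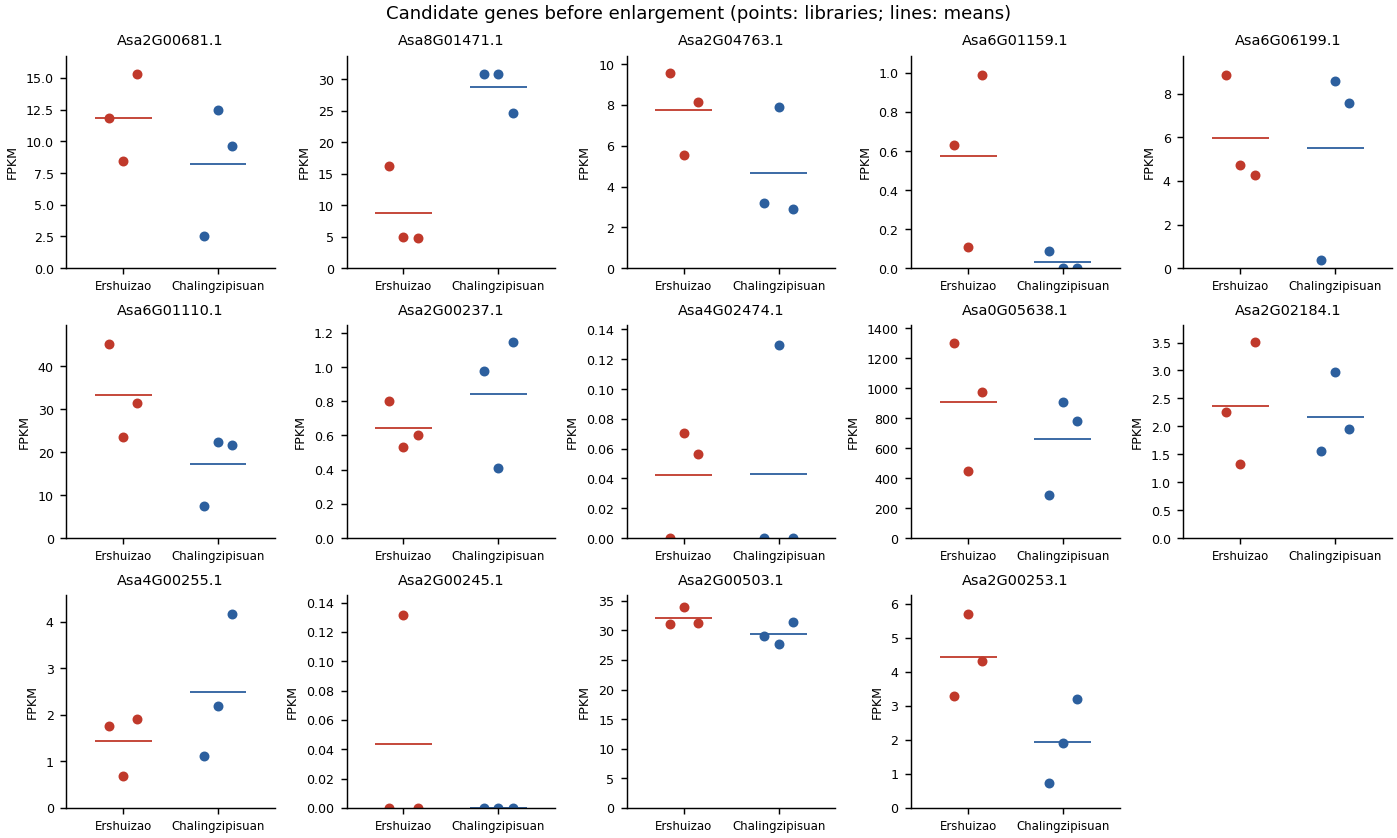
FPKM of the 14 candidate genes in the 3 Ershuizao (red) and 3 Chalingzipisuan libraries (blue) before enlargement, with a line at each mean and axes from 0. The varieties are separate for *Asa8G01471.1*, *Asa6G01110.1* and *Asa2G00253.1* among the genes tested. Over all genes tested they were separate in 10.9% with Ershuizao higher and in 9.65% with Chalingzipisuan higher. Replicate 1 of Chalingzipisuan, the left of the 3 blue points, is the lowest for several genes.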

How the data were processed

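Libraries were made from total RNA of single individuals. The authors used HISAT2 to align the filtered read pairs to a garlic genome and deposited 1 FPKM table over all libraries. The program that counted the fragments is not given in the sources used here. Whole fragments behind 99.7% of the FPKM values above 0 were recovered from the steps of the values (tolerance 0.003) and gave depth, lengths, the limits at 0 (3 fragments per library) and an alternative test.

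Ershuizao minus Chalingzipisuan was tested, two-sided, on log2(FPKM + 0.5) with the limma package (3.58.1, R 4.3.3), with moderated variances (trend and robust), P values being adjusted by Benjamini-Hochberg over all genes tested. The change between the stages was an interaction over 12 libraries. Single genes were compared by exact permutation (smallest p 0.1 for 3 against 3). Between replicates of a variety before enlargement, squared differences of fragments were 7.92 to 33.9 times sampling noise. None of these libraries was thus a copy of another of its variety. Other pairs of libraries were not compared in this way.

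Named were the 14 candidates; per direction the 5 largest differences among called genes above 0 in all libraries with a mean FPKM of at least 5, the 4 genes at 0 in the other variety with the highest minimum (2 existed in Ershuizao) and the 3 most abundant called genes; and the longest runs. *Asa8G05954.1*, *Asa7G01587.1*, *Asa7G01914.1* and *Asa1G00615.1* were added after their values were seen. The comparison, lists and rules were chosen with earlier results of these data known. Alternatives were other pseudocounts, filters, scalings, call rules and fits, a replicate block, limma voom on the fragments, and each library left out. The scripts were tested on simulated data, and Python 3.11.15 was used.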

Additional observations from a re-analysis of the deposited data

Results flagged for a closer look

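The difference between the varieties changed with the stage for 2 of the genes named, by a test of the change itself. No other gene of the 31578 tested passed it with all 12 libraries. *Asa7G01587.1* was added to the named genes after its values were seen, so that its place among them is no separate result. For *Asa3G01470.1* the log2 difference before enlargement minus that under enlarging growth was -5.20 (standard error 0.53, limma adjusted P = 0.0321), and -5.48 without enlarging replicate 3 of Chalingzipisuan (adjusted P = 0.00721). All 3 libraries of Chalingzipisuan were higher before enlargement and all 3 of Ershuizao under enlarging growth. For *Asa7G01587.1* it was -3.44 (standard error 0.38, adjusted P = 0.0373), and -3.43 without that library (adjusted P = 0.018), with the same order of the libraries. Without that library the change also passed for *Asa3G01472.1* (adjusted P = 0.0168), *Asa3G01471.1* (0.0321), *Asa3G01406.1* (0.0321), *Asa7G00439.1* (0.04), *Asa8G01471.1* (0.0426) and *Asa7G00442.1* (0.0458), for which the adjusted P with all 12 libraries was 0.107, 0.102, 0.999, 0.999, 0.146 and 0.999.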

How the results depend on the processing

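With 3 individuals per variety the counts of calls are imprecise. The 34 called genes named kept their direction under every alternative in which they were tested, which the choice of genes without overlap fixes in part. Of them 17 were still called with the replicate block, 23 with all 18 libraries in 1 fit and 27 with limma voom, 22, 22 and 16 of 29 tested without Chalingzipisuan replicate 1, 2 or 3, and 7, 2 and 1 of 23 tested without Ershuizao replicate 1, 2 or 3. The numbers of genes called higher in Ershuizao and in Chalingzipisuan were 1307 and 369 at unadjusted P, and 160 and 31 above 4-fold. They lay between 2 and 233 and between 1 and 61 with a library left out. Genes at 0 in the other variety and called then numbered between 0 and 45 and between 0 and 1. Leaving out an Ershuizao library takes genes at 0 in Chalingzipisuan out of the test, since the filter asks for 3 libraries. Genes at 0 in Ershuizao and called numbered 7 at unadjusted P, 5 with the filter at FPKM above 0 in at least 1 library, 6 with all 18 libraries in 1 fit, and 5 without trend and robust estimation. Between the varieties, deviations from the group means correlated at -0.29, -0.09 and 0.09 for replicates 1, 2 and 3, and no pairing by number was assumed. With replicate number as a block, 83 and 10 genes were called, 25 and 1 of them at 0 in the other variety, and 92.7% and 70% had the same direction under enlarging growth. That share was 75.3% for the genes higher in Ershuizao at unadjusted P and 82.2% without trend and robust estimation. With a library left out, enlarging replicate 3 of Chalingzipisuan included, it lay between 61.1% and 100% for genes higher in Ershuizao and between 68.4% and 100% for those higher in Chalingzipisuan.

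Alternatives for the enlarging bulbs were chosen after seeing the data. Without replicate 3 of Chalingzipisuan 44 and 26 genes were called there, and 92 genes changed between the stages. With limma voom 0 genes were called in either direction, with 1827 at unadjusted P under 0.05, and with the replicate block 0, with 1242; the cause was not tested. Candidate genes that changed sign were *Asa6G06199.1* (-0.48 to 1.23) and *Asa0G05638.1* (-0.026 to 0.93) with a library left out, both below 0 without replicate 1 of Chalingzipisuan only, and *Asa2G02184.1* (-0.21 to 0.36), below 0 without that library (-0.10) or replicate 3 of Ershuizao and, at -0.066, with quantile normalization.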
